A study of Homo sapiens with 14 samples.

Results

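The BCL2 family regulators of apoptosis were followed in human T cell acute lymphoblastic leukemia cells after knockdown of either of the H3K27 demethylases JMJD3 (gene KDM6B) and UTX (gene KDM6A). The genes are 10 of the 55075 in the deposited tables, taken by symbol, and were chosen with earlier results of these data known. They are the guardians BCL2, BCL2L1 and MCL1, the effectors BAX and BAK1, and the BH3-only genes BCL2L11, BBC3, PMAIP1, BID and BAD. All 10 had at least 50 counts in some column of each comparison, so none was lost to the filter on low counts.

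Each of the 14 samples was a suspension culture in RPMI medium that had been infected with a retrovirus carrying a short hairpin. In CUTLL1 there were 3 samples with a hairpin against JMJD3 (shJMJD3), 2 with a hairpin against UTX (shUTX) and 3 with a control hairpin against Renilla luciferase (shRenilla). CEM had 2 samples of each. CUTLL1 is a leukemia line known for a translocation that activates NOTCH1, and CEM is a long-established T cell leukemia line. No uninfected cells were among the samples, so every group shares viral infection and a hairpin. The labels give no hairpin sequence, and an effect of a hairpin on another transcript cannot be told apart from that of its target. The deposited counts held 1 column per hairpin and line, taken here as a pooled value since no source says which libraries it holds, so a difference within a line has no replicate check.

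The BCL2 family decides whether the outer mitochondrial membrane stays intact. BAX and BAK1 form pores in that membrane that release cytochrome c, which starts the caspase cascade. The guardians bind and hold back the effectors, and the BH3-only proteins carry stress signals by binding the guardians or by activating the effectors directly. In T cells, BCL2L11 (BIM) and the guardians are known to set the survival of thymocytes, and T cell leukemias differ in whether BCL2 or BCL2L1 keeps them alive. Much of the family is also controlled at the protein level, by cleavage of BID, phosphorylation of BAD and rapid turnover of MCL1 and PMAIP1, which transcript counts do not show. BCL2L1, MCL1 and BCL2L11 are spliced into isoforms of different or opposite activity, and a count per gene does not separate them.

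Promoter windows of 3 members are shown because BBC3 and BID were the members that stood apart with shJMJD3 in CEM, and because these windows and that of BAX hold a shared motif, CACGTG. This motif is the palindromic E-box, known as a binding sequence of MYC and of USF proteins, and it is in capitals below. Each sequence is 300 bases of RefSeq on GRCh38.p14, reaching from 250 bases before to 50 bases after an annotated start. The BAX window is chr19:48954625-48954924 on the plus strand, the BBC3 window is chr19:47232618-47232917 on the minus strand, and the BID window is chr22:17773934-17774233 on the minus strand.
BAX: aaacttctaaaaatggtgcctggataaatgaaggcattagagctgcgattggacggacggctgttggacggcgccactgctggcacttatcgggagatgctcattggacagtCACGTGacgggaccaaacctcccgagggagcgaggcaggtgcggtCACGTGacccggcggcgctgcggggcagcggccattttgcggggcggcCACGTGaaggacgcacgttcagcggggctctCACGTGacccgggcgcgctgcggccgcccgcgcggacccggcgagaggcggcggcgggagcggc
BBC3: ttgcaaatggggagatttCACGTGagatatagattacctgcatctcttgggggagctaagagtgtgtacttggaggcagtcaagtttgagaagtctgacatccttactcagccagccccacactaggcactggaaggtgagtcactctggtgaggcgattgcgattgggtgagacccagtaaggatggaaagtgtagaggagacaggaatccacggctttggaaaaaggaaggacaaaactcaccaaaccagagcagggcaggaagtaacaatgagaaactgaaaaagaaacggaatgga
BID: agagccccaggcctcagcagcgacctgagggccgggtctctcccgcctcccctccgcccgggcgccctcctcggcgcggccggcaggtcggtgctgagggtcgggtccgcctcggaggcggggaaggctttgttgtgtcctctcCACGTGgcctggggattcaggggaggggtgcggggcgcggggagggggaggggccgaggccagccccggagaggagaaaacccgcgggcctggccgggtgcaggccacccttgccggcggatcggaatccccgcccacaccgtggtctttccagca
Of the 10 members, 9 had an entry, and they gave 15 windows, since BID, BCL2L1 and BAD have several annotated starts. CACGTG was in 4 of these 15 windows and 3 members, against 7.26% of all 35116 human promoter windows. BAX had 4 copies, BBC3 had 1, and BID had 1 in each of 2 overlapping windows among its 5. A second motif, TGATGNAA, the core that ATF4 and CHOP are known to bind, was searched on both strands and was in none of the 15 windows, against 3.62% of all windows. The windows were picked after the matches were seen, and a match is a description of these letters. Which start these cells use was not measured here.

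Both targets were lower with their own hairpin in both lines. KDM6B was at 10.9 CPM (counts scaled to a column total of 1000000) with shJMJD3 in CUTLL1, against 18.8 CPM with shRenilla. In CEM it was at 52.2 CPM with shJMJD3, against 206 CPM with shRenilla. KDM6A was at 19.3 CPM with shUTX in CUTLL1, against 43.0 CPM in the shRenilla column paired with it, and at 51.5 CPM with shUTX in CEM, against 136 CPM with shRenilla. KDM6A with shJMJD3 in CEM was at 86.7 CPM, also below the control, though less than 1.5-fold after TMM scaling.

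Column totals ran from 70280185 to 258014046 counts. The CUTLL1 shRenilla column came in 2 versions, a larger one in the table with shJMJD3 (258014046 counts) and a smaller one in the table with shUTX (144394369 counts). The larger was at or above the smaller in every gene, and their difference left a remainder of 113619677 counts. Protein-coding genes held 66.9% of counts with shJMJD3, 79.0% with shUTX and 72.2% with shRenilla in CUTLL1, against 93.0% to 94.1% in CEM. The remainder of the control had 60.0%, and the smaller control column 81.8%. Per the labels' protocols some libraries were selected for polyadenylated RNA and others depleted of ribosomal RNA, with no list of which sample had which given in the sources used here. All 6 T cell markers had at least 50 counts in every column, with a summed level between 1914 and 2440 CPM over the 6 columns that take the larger control, 2630 CPM in the smaller control column and 1464 CPM in the remainder. Erythroid markers summed to at most 0.977 CPM over all of these, and myeloid markers to at most 6.46 CPM. B cell markers summed to between 0.651 and 83.3 CPM, and MS4A1 was at 0 counts in every column.

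The members spanned a wide range of levels, and the guardians BCL2L1 and MCL1 and the BH3-only gene PMAIP1 were the most abundant in both control columns. Levels were set between genes only as CPM per kilobase of merged exons (CPM per kb). In CUTLL1 the order in the larger control column began with BCL2L1 at 75.2 CPM per kb and PMAIP1 at 73.8, and the ranges of this pair over the 3 hairpins overlapped. MCL1, a short-lived guardian, followed at 37.3 CPM per kb. BAD was at 27.9 and BID at 24.2 CPM per kb, again with overlapping ranges, and BAX was at 11.9. Low in the order stood BCL2 at 5.70 CPM per kb, BAK1 at 3.81, BCL2L11 at 1.5 and BBC3 at 0.773, of which BAK1 overlapped with BCL2L11 and, with shUTX at 0.826, with the range of BBC3.

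CEM had another order. MCL1 came first, at 42.6 CPM per kb in the control column, above every other member in each hairpin column. BCL2L1 was at 30.5 CPM per kb and PMAIP1 at 27.7, and their ranges over the hairpins missed each other narrowly, at no less than 27.8 for BCL2L1. BAX, the effector that waits in the cytosol, was at 23.6 CPM per kb in the control column and overlapped with PMAIP1. BAD at 12.9 and BID at 11.7 overlapped with each other, and BID reached 18.9 CPM per kb with shJMJD3. BCL2 at 4.49, BAK1 at 3.13 and BCL2L11 at 2.61 CPM per kb overlapped in turn. BBC3 was the lowest member in the CEM control column, at 1.45 CPM per kb, and in the larger CUTLL1 control column. In the smaller CUTLL1 control column BAK1 was lower, at 1.11 CPM per kb against 1.22 for BBC3.

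Summed by role, CUTLL1 columns held more BH3-only than guardian signal and CEM columns the reverse. In CUTLL1 the BH3-only genes held 48.5% of the summed CPM per kb with shJMJD3, 53.4% with shUTX and 48.9% with shRenilla. In CEM they held 36.5% with shJMJD3, 32.9% with shUTX and 35.0% with shRenilla. The effectors held between 4.39% and 6.01% in CUTLL1, against 12.1% to 16.7% in CEM. The guardians held 42.2% to 46.2% in CUTLL1, against 48.3% to 52.4% in CEM. The ranges of the lines did not overlap for any role over these 6 columns, but in the remainder of the CUTLL1 control the guardians held 47.0% and the BH3-only genes 43.2%.

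**Figure D1:**
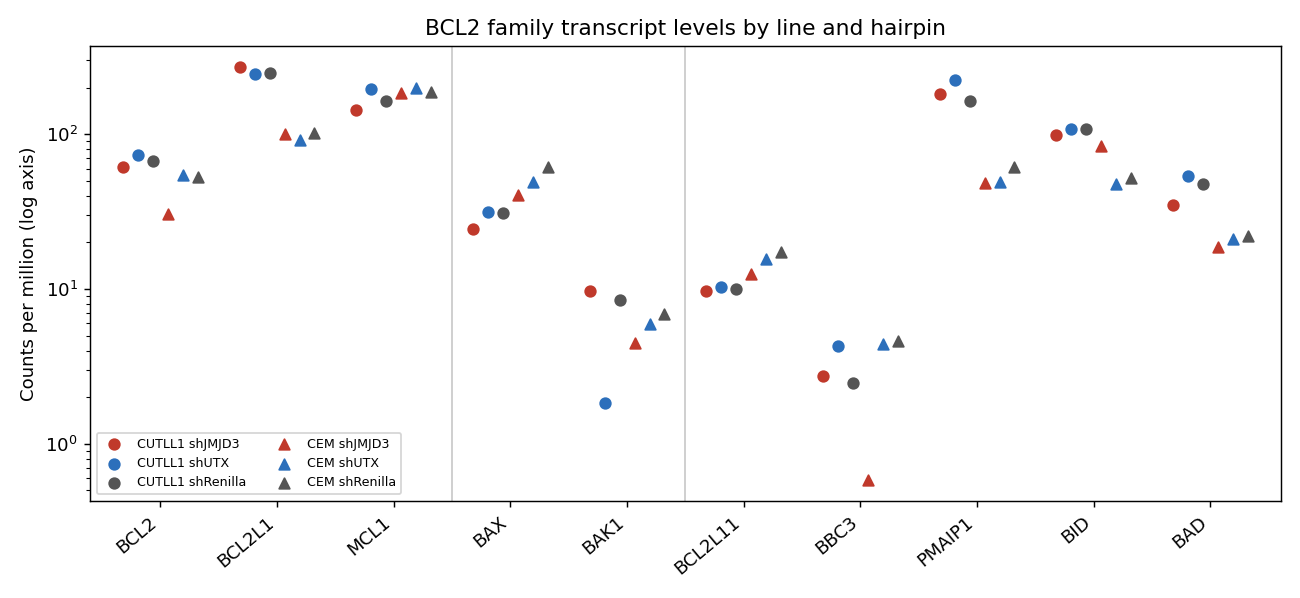
Level of each of the 10 members in CPM (log axis) in the 6 columns, CUTLL1 as circles and CEM as triangles, with the guardians left of the first line, the effectors between the lines and the BH3-only genes on the right. PMAIP1 and BCL2L1 sit higher in every CUTLL1 column than in any CEM column, and BBC3 with shJMJD3 in CEM, at 0.583 CPM, lies below all other points.

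The comparison of shJMJD3 with shRenilla asks what loss of the first demethylase does to the family. In CEM, 2 of the 10 members stood at least 1.5-fold apart after TMM scaling, BBC3 lower and BID higher, while 46.3% of all 16998 measured genes were that far apart, 22.4% higher and 23.9% lower. A count of 2 in 10 members is thus no larger a share than that of all genes. The median absolute log2 ratio was 0.30 over the members and 0.51 over genes measured in both lines. In the authors' deposited table for this comparison, 8 of the 10 members had a p-value under 0.001. So did 45.2% of the 32415 genes with a count in either column, a wider set than the 16998 measured genes. Shares beside the deposited p-values, here and below, are over such wider sets and include many genes with few counts. The authors' test compares the reads of these libraries.

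BBC3 encodes PUMA, a BH3-only protein that binds all guardians. It had 41 counts (0.583 CPM) with shJMJD3 in CEM, 314 counts (4.43 CPM) with shUTX and 481 counts (4.62 CPM) with shRenilla. The shJMJD3 column was far below the other CEM columns, which differed little from each other. Its log2 ratio to shRenilla was -2.63, with an exact binomial 95% interval of -3.17 to -2.21 that, like all intervals here, covers counting error only. Only 1.57% of all measured genes had a lower ratio.

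BID links death receptors to mitochondria, since caspase-8 cleaves it into its active form. It was at 83.8 CPM with shJMJD3 in CEM, 47.6 CPM with shUTX and 52.2 CPM with shRenilla, so the shJMJD3 column alone was high. The log2 ratio of shJMJD3 to shRenilla was 0.99 (95% interval 0.94 to 1.05), and 0.68 when scaled to column totals.

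BCL2, the founding guardian and the target of venetoclax, was at 30.7 CPM with shJMJD3 in CEM, against 54.2 CPM with shUTX and 52.9 CPM with shRenilla. The shJMJD3 column was the low one, but its log2 ratio to shRenilla of -0.47 fell short of 1.5-fold after TMM scaling. BCL2L1 and MCL1, the other guardians, had log2 ratios of 0.29 and 0.30, and by column totals -0.02 and -0.01, so their direction depended on the scaling. BAX had a log2 ratio of -0.29, BAK1 of -0.32, BCL2L11 of -0.16, PMAIP1 (NOXA, which binds MCL1) of -0.05 and BAD, which binds BCL2 and BCL2L1, of 0.07. The ratio of BAD was -0.24 by column totals. Scaled to column totals, 5 members were apart, BID higher, and BBC3 (-2.94), BCL2 (-0.78), BAK1 (-0.63) and BAX (-0.60) lower, beside 13.9% of genes higher and 36.5% lower. That scaling moved the median log2 ratio of all genes by -0.31.

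**Figure D2:**
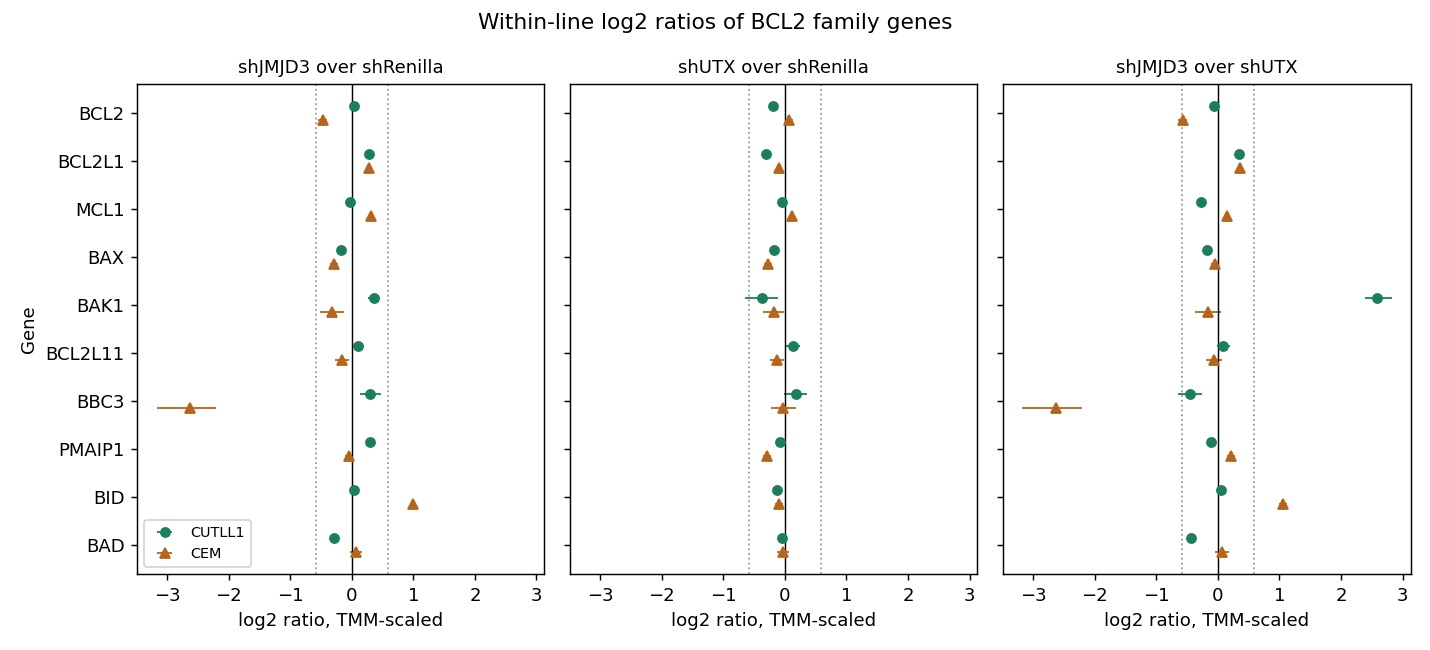
TMM-scaled log2 ratio of each member for the 3 pairs of hairpins, CUTLL1 as circles and CEM as triangles, with exact binomial 95% intervals of counting error and dotted lines at 1.5-fold. BBC3 at -2.63 and BID at 0.99 lie beyond the lines for shJMJD3 over shRenilla in CEM, and BAK1 at 2.59 for shJMJD3 over shUTX in CUTLL1.

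In CUTLL1 none of the 10 members was 1.5-fold apart between shJMJD3 and the larger shRenilla column, while 15.9% of all 19772 measured genes were, 8.63% higher and 7.23% lower. The log2 ratios ran from -0.29 for BAD to 0.36 for BAK1. BBC3 was at 2.73 CPM with shJMJD3, 4.25 CPM with shUTX and 2.46 CPM with shRenilla. Relative to shRenilla its log2 ratio was thus 0.30 with shJMJD3 (95% interval 0.13 to 0.48). It therefore leaned the other way than in CEM, and the smaller control column, at 3.87 CPM, turned this ratio to -0.13. BID was at 98.9 CPM with shJMJD3, 109 CPM with shUTX and 107 CPM with shRenilla, which is a log2 ratio to shRenilla of 0.03. Only 3 of the 10 members had the same sign of ratio in both lines, as did 60.4% of all genes measured in both. This count was 6 against the smaller control column and 5 by column totals. Against the smaller column BCL2 (0.03 to -0.11), BBC3 (0.30 to -0.13) and PMAIP1 (0.30 to -0.04) changed sign. In the authors' deposited table, 8 members had a p-value under 0.001, as did 34.4% of genes with any count.

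Tested across both lines, no member passed. The quasi-likelihood test of edgeR, with the lines as its replicates, gave the members Benjamini-Hochberg adjusted p-values between 0.80 and 0.99 for shJMJD3 against shRenilla. None of the members had an unadjusted p under 0.05, and DESeq2 called none. The test called 0 of 24003 genes (0%), 936 genes had an unadjusted p under 0.05, and DESeq2 called 110 genes. BBC3 had a fitted log2 ratio of -1.02 with a standard error of 0.83, and BID had 0.54 with a standard error of 0.31. KDM6B, the target of shJMJD3, was not called either, at a fitted log2 ratio of -1.15 with a standard error of 0.30. The test thus did not call the intended knockdown, and a member that did not pass is not shown to be unchanged.

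The parts of the CUTLL1 control column differed from each other in several members. BAK1, the effector that sits in the mitochondrial membrane, was at 9.75 CPM with shJMJD3 and 1.83 CPM with shUTX in CUTLL1, against 8.44 CPM in the larger control column, 2.44 CPM in the smaller one and 16.1 CPM in the remainder. The high columns and the low ones thus do not follow the hairpins. Its log2 ratio of shJMJD3 was 0.36 to the larger control, 2.37 to the smaller and -0.91 to the remainder. Within the control itself BAK1 was 3.27 higher on the log2 scale in the remainder than in the smaller column, while BBC3 was at -1.97, PMAIP1 at -1.35 and BCL2L11 at 0.65. The share of small noncoding RNA moved with this, at 11.7% with shJMJD3, 2.58% with shUTX, 1.97% in the smaller control column and 18.7% in the remainder, and its part in the BAK1 values was not tested. The shJMJD3 ratio pointed the same way against both parts of the control in 3 members, BCL2L1 higher, and BAX and BAD lower, and the other 7 lay between the parts.

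**Figure D3:**
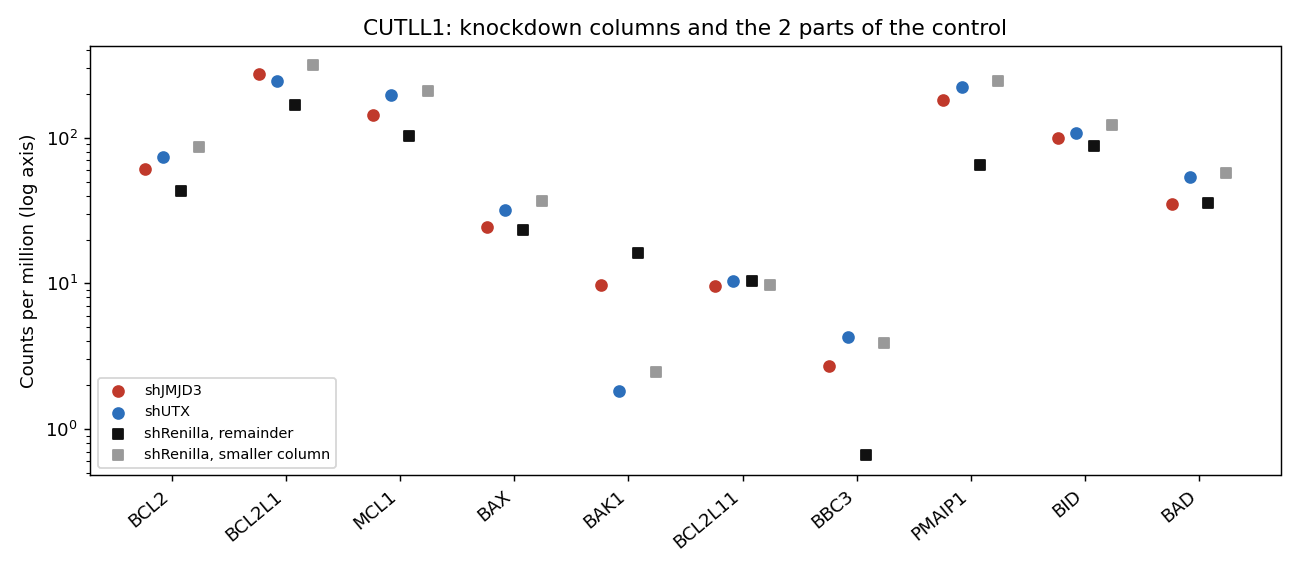
Level of each member in CUTLL1 in CPM (log axis), with shJMJD3 and shUTX as circles and the remainder and the smaller column of shRenilla as squares. BAK1 with shJMJD3, at 9.75 CPM, lies between the remainder at 16.1 CPM and the smaller column at 2.44 CPM, and the parts of the control are also far apart for BBC3.

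For shUTX against shRenilla, the question is the same for the other demethylase, and no member stood 1.5-fold apart in either line. In CUTLL1, where 5.77% of all 16886 measured genes were apart from the smaller control column (3.5% higher and 2.27% lower), the log2 ratios of the members ran from -0.38 for BAK1 to 0.18 for BBC3. In CEM, where 7.37% of all 16791 genes were apart (3.32% higher and 4.05% lower), they ran from -0.29 for PMAIP1 to 0.12 for MCL1. BBC3 in CEM was at 4.43 CPM with shUTX, against 4.62 CPM with shRenilla. The counting interval of its log2 ratio, -0.23 to 0.19, spans 0. The control column again mattered in CUTLL1: against the larger one, BAK1 was at -2.23 and BBC3 at 0.76. PMAIP1 was at 1.27 against the remainder. Signs matched between the lines for 6 of 10 members, against 54.4% of genes. In the authors' deposited tables, 8 members in CUTLL1 and 5 in CEM had a p-value under 0.001, against 23% and 21.8% of genes with any count.

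Across lines, all members had a Benjamini-Hochberg adjusted p of 1 in the quasi-likelihood test of edgeR for shUTX against shRenilla, and none had an unadjusted p under 0.05 or was called by DESeq2. The test called 0 of 23112 genes (0%), with 39 genes at an unadjusted p under 0.05 and 2 called by DESeq2. The fitted log2 ratios were small in most members, BAX for instance at -0.22 with a standard error of 0.15. KDM6A, the target of shUTX, was not called by the edgeR test either, at -1.25 with a standard error of 0.17. Here too, a member that did not pass is not shown to be unchanged.

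Set against each other, the knockdown hairpins gave BAK1 apart in CUTLL1, and BBC3 and BID in CEM. These ratios share their shJMJD3 and shUTX columns with those above. In CUTLL1, BAK1 alone was apart, with 1699 counts with shJMJD3 and 186 counts with shUTX. Its log2 ratio was 2.59 (95% interval 2.38 to 2.83), beside 27.5% of all genes apart, 17.3% higher and 10.2% lower. The parts of the CUTLL1 control were further apart in BAK1, with the remainder 3.27 above the smaller column on the log2 scale. By column totals BBC3 (-0.64) and BAD (-0.62) were also apart between shJMJD3 and shUTX in CUTLL1, beside 15.3% of genes higher and 21.3% lower. In CEM, BBC3 was apart at -2.63 and BID at 1.06, beside 45.5% of all genes, 22.2% higher and 23.3% lower. BCL2 at -0.57 missed 1.5-fold, at 1.49-fold. Scaled to column totals BCL2 was at -0.82. In the authors' deposited tables, 9 members in CUTLL1 and 8 in CEM had a p-value under 0.001, against 43.3% and 44.2% of genes with any count. No member passed the quasi-likelihood test of edgeR across lines, with Benjamini-Hochberg adjusted p-values between 0.63 and 0.98, none with an unadjusted p under 0.05 and none called by DESeq2. Of 24003 genes 0 passed (0%), 1945 had an unadjusted p under 0.05, and DESeq2 called 287.

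More members were called between the lines than between the hairpins. With the 3 hairpins as replicates, 5 of the 10 members were called between CUTLL1 and CEM at an adjusted p under 0.05 in edgeR's quasi-likelihood test, all 5 higher in CUTLL1. Of all 24003 genes 36.8% were called, and 19% were higher in CUTLL1. The shares of protein-coding counts also differed between the lines. Small noncoding RNA held 0.0392% to 0.0486% of counts in the CEM columns. In CUTLL1 it held 2.58% with shUTX, 9.33% in the larger shRenilla column and 11.7% with shJMJD3. The library type of each sample is not given, so an effect of library type cannot be told apart from one of line.

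PMAIP1 was at 182 CPM with shJMJD3, 223 with shUTX and 165 with shRenilla in CUTLL1, against 48.0, 49.2 and 61.8 CPM in the same order of hairpins in CEM. These CUTLL1 columns were above all CEM columns, with a fitted log2 ratio of 2.15 (SE 0.20, adjusted p = 0.0035 by edgeR). Within the CUTLL1 control PMAIP1 was at 244 CPM in the smaller column and 64.8 CPM in the remainder, close to CEM with shRenilla. How many of all genes had columns that did not overlap between the lines was not counted. BCL2L1, the guardian BCL-XL, was at 273, 246 and 249 CPM in CUTLL1 and at 99.5, 92.0 and 101 CPM in CEM, with the hairpins in the same order. It too did not overlap between the lines, at a log2 ratio of 1.70 (SE 0.16, adjusted p = 0.0035 by edgeR). BAD was higher in CUTLL1 by 1.44 (SE 0.18, adjusted p = 0.0069 by edgeR).

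BID was higher in CUTLL1 by 1.13 (SE 0.26, adjusted p = 0.029 by edgeR), and without the shUTX columns its adjusted p was 0.061. BCL2 was higher in CUTLL1 by 0.90 (SE 0.18, adjusted p = 0.020 by edgeR), and by column totals it missed the threshold, at 0.59 with an adjusted p of 0.065. In the remainder of the CUTLL1 control BCL2 was at 43.3 CPM, within the 30.7 to 54.2 CPM of the CEM columns. Without the shRenilla columns only BCL2L1 and PMAIP1 were called. BAX leaned toward CEM, at 24.5, 31.6 and 30.9 CPM in CUTLL1, against 40.3, 49.4 and 61.1 CPM in CEM. These columns did not overlap, and its log2 ratio of -0.47 had an adjusted p of 0.065 in edgeR's test, while it passed by column totals (-0.78, adjusted p = 0.022) and was called by DESeq2. MCL1, BAK1 and BBC3 overlapped between the lines, and BCL2L11 was above in CEM columns, with an adjusted p of 0.32 in edgeR's test.

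**Figure D4:**
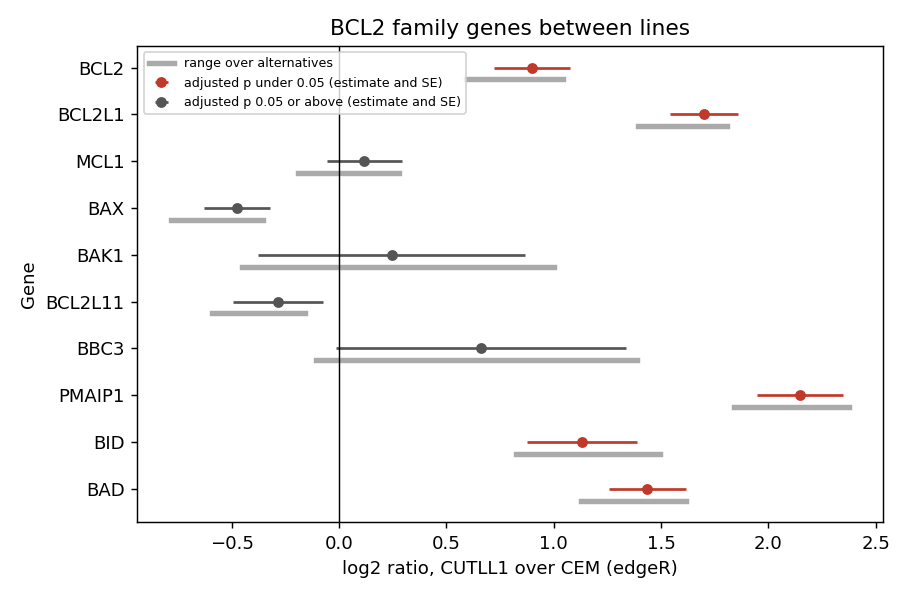
Fitted log2 ratio of CUTLL1 over CEM for each member, as the edgeR estimate with its standard error, in red at an adjusted p under 0.05, with a grey bar below it for the range over the alternatives. PMAIP1 at 2.15 and BCL2L1 at 1.70 are the highest, and the grey bars of MCL1, BAK1 and BBC3 cross 0.

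Beyond the 10 members, 3 lists of related genes were measured, with at least 50 counts in either column required. Of 15 other BCL2 family genes and BH3-domain relatives, 11 were measured in CEM and 5 were higher and 2 lower with shJMJD3 than with shRenilla, with a median log2 ratio of 0.20, against -0.02 over all genes. Of all genes, 22.4% were higher and 23.9% lower in this comparison, 46.3% in all. BNIP3 and BNIP3L, which mark mitochondria for autophagy, were the highest, at 4.91 and 2.73. BNIP3 was at 248 CPM with shJMJD3 in CEM, against 10.2 CPM with shRenilla. In CUTLL1 this pair was higher with shJMJD3 than in the larger control column, at 0.87 and 0.72, and no other gene of the 9 measured was apart. Against the smaller control column the pair was at 0.34 and 0.22, and none of the 9 was apart. BNIP3 was at 57.0 CPM with shJMJD3 in CUTLL1, against 58.5 CPM in the smaller control column and 4.62 CPM in the remainder.

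The lower genes were BMF and BCL2L15. BMF, a BH3-only gene known for responding to loss of attachment, had 45 counts with shJMJD3 in CEM, 139 with shUTX and 524 with shRenilla. Its log2 ratio to shRenilla was -2.63 with shJMJD3 and -1.31 with shUTX, so it was apart with both hairpins in CEM. In CUTLL1 BMF was at 22.5 CPM with shJMJD3, 28.7 CPM with shUTX and 20.8 CPM in the larger shRenilla column. The smaller shRenilla column was above both knockdown columns, at 29.7 CPM, and the remainder was below them, at 9.4 CPM. After TMM scaling the log2 ratios of BMF to the smaller column were -0.03 with shJMJD3 and -0.01 with shUTX. BCL2L15 was at -2.49 with shJMJD3 and -0.78 with shUTX in CEM. HRK, a BH3-only gene named here after its values were seen, had 0 counts with shJMJD3 in CEM, 13 with shUTX and 45 with shRenilla. Taken against a floor of 3 counts in the shJMJD3 column, that is at least 10.1-fold lower than with shRenilla in CPM of column totals. This bound was not scaled by TMM. It did not reach 50 counts in any column and was not counted.

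Of 20 genes of the apoptosome and its effectors, all measured, 6 were higher and 1 lower with shJMJD3 in CEM, with a median of 0.23. This is 7 of 20 apart, beside 46.3% of all genes. VDAC1 and VDAC2, channels of the outer membrane, were at 2.27 and 1.09, and BIRC5 (survivin) was at 2.07, while the lower gene was CASP2 at -0.59. None of the 20 was apart from the larger control column in CUTLL1, where the median was -0.04. From the smaller one 3 were apart and higher, VDAC2 at 1.75, VDAC1 at 1.26 and CYCS (cytochrome c) at 0.98, and all 3 were lower than in the remainder. With shUTX none was apart in CEM or from the smaller control column in CUTLL1, while 1 was higher and 3 lower than in the larger column. Between shJMJD3 and shUTX, VDAC1 (1.07 in CUTLL1, 2.11 in CEM) and VDAC2 (1.82 in CUTLL1, 0.92 in CEM) were higher in both lines. In CUTLL1 the parts of the control differed in these genes as well, by 2.01 for VDAC1 and 2.55 for VDAC2 on the log2 scale, with the remainder above the smaller column.

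Of 21 regulators of the family, all measured, 2 were higher and 7 lower with shJMJD3 in CEM, with a median of -0.25. This is 9 of 21 apart, beside 46.3% of all genes. BAG3, a co-chaperone that stabilises guardians, was at 1.99 and the kinase PIM2 at 0.91. TRIB3 and DDIT3, both induced by the integrated stress response, were at -3.99 and -1.57. PIM1, a kinase that phosphorylates BAD, was at -1.16. In CUTLL1, against the larger control column, ATF4 (0.89) and YWHAZ (0.67) were higher and TP73 (-0.63) was lower. YWHAZ was at 2.35 against the smaller column and -0.53 against the remainder, ATF4 at 1.59 and 0.10, and TP73 at -0.54 and -0.75. TP73 was lower in CEM too (-0.74), but it had 23 counts with shJMJD3 and 60 with shRenilla in CUTLL1, where its interval reached 0.05. With shUTX, CDKN1A (-0.82 in CEM) was the only regulator apart in CEM, and in CUTLL1 none was apart from the smaller control column, against 3 higher and 2 lower than in the larger. TRIB3 was lower with shJMJD3 than with shUTX in both lines (-1.22 in CUTLL1, -4.37 in CEM). Within the CUTLL1 control TRIB3 was at 291 CPM in the smaller column and 41.1 CPM in the remainder, a wider gap than the 121 CPM with shJMJD3 and 322 CPM with shUTX.

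**Figure D5:**
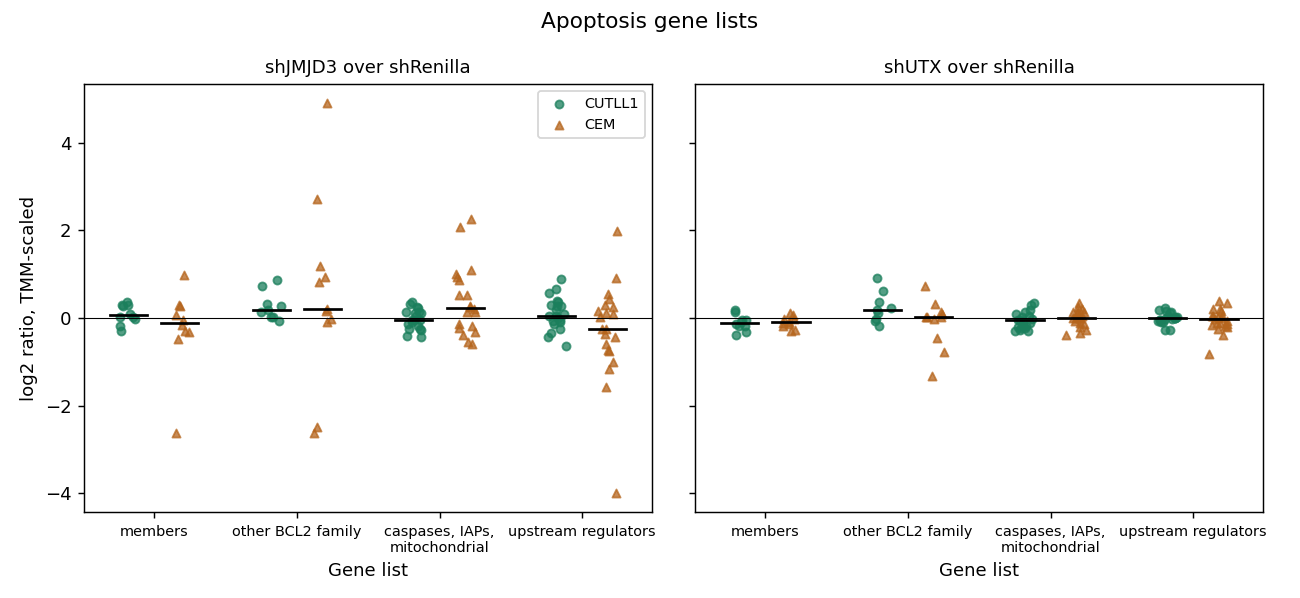
TMM-scaled log2 ratios to shRenilla with shJMJD3 (left) and with shUTX (right), one point per gene with at least 50 counts in either column, for the 10 members and the 3 wider lists, with CUTLL1 as circles, CEM as triangles and a bar at each median. The widest spread is with shJMJD3 in CEM, where BNIP3 lies at 4.91 and TRIB3 at -3.99.

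Of the other family genes, 2 of 9 were higher with shUTX than in the smaller shRenilla column in CUTLL1, BNIP3 at 0.91 and BNIP3L at 0.61, beside 5.77% of all genes apart. In CEM 1 of 11, BNIP3 at 0.74, was higher with shUTX and 2 were lower, beside 7.37% of all genes apart. Between shJMJD3 and shUTX, 1 of 9 other family genes, BNIP3, was lower in CUTLL1, and 6 of 11 were higher and 2 lower in CEM, beside 27.5% of all genes apart in CUTLL1 and 45.5% in CEM. In the same comparison, of the 20 apoptosome and effector genes 3 were higher and 3 lower in CUTLL1, among them CYCS at 1.04 and CASP9, the caspase of the apoptosome, at -0.79, and 5 were higher and 1 lower in CEM. Of the regulators, 3 of 20 were higher and 1 lower in CUTLL1, with YWHAZ, a scaffold protein of the kind that holds phosphorylated BAD in the cytosol, at 2.23, and 3 of 21 were higher and 6 lower in CEM.

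Markers of other cell types differed with shJMJD3 in CEM as well. B cell markers summed to 47.6 CPM with shJMJD3, against 83.3 CPM with shRenilla. Of the 5 B cell markers 3 were measured, 2 higher and 1 lower, with a median log2 ratio of 0.89. CD79A, the most abundant of them, was the lower one (-0.81), and CD79B was among the higher (0.89). Myeloid markers summed to 6.46 CPM with shJMJD3, against 0.355 CPM with shRenilla, with ITGAM (5.72) the only one of 5 measured. T cell markers summed to 2400 CPM with shJMJD3, against 2309 CPM with shRenilla. Their part in the values of the members was not tested.

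Over the 4 ratios to shRenilla, from the 2 knockdown hairpins in the 2 lines, the genes most like BBC3 and BID were sought. They were named among 13706 genes with at least 50 counts in every column. BBC3, with 41 counts with shJMJD3 in CEM, did not itself reach this minimum. Other genes that fell below 50 counts there could not be named as like it. The measure was the root mean square difference of the ratios, which share the control column in CEM, while in CUTLL1 the shUTX ratio uses the smaller column, whose counts never exceed those of the larger. For BBC3 these were TTC28 (0.0446), ADM2 (0.148) and SCN3A (0.162). TTC28 was at -2.71 with shJMJD3 in CEM and at 0.27 with shJMJD3 in CUTLL1. For BID they were LSM3 (0.0275), CXorf65 (0.0422) and MRPL22 (0.0427). LSM3 was at 0.97 with shJMJD3 in CEM and at 0.08 in CUTLL1.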

How the data were processed

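RNA sequencing was done on 14 samples of CUTLL1 and CEM cells. Per the submitters' processing notes, CASAVA, TopHat and hg19 were used; how reads were counted, and whether by strand, is not stated there. For each pair of hairpins in a line the authors deposited a table, 6 in all, which the labels credit to DEGseq. It holds, per the file headers, raw counts per gene, log2 fold changes normalized by the authors, and p-values of DEGseq. Since the replicates of a group point to common tables in the labels, each column was taken as the authors' pooled value, although the design text speaks of tests within biological or technical replicates. The numbers of replicates are those of the labels. Symbols and identifiers are those of the tables. Merged exon lengths came from GENCODE release 29 (all 10 members matched), which is on another assembly, so no gene coordinates are given. Reads shared with overlapping genes or copies are uncertain.

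Columns were tested together with edgeR 4.0.16 in R 4.3.3 (quasi-likelihood test, TMM scaling, filterByExpr, terms for line and hairpin, 2 residual degrees of freedom, call at a Benjamini-Hochberg adjusted p under 0.05 over all genes), with DESeq2 1.42.0 as an alternative. The p-values so obtained reflect spread among 2 lines, or among 3 hairpins, and not between cultures. The script was tested on simulated data. shUTX was set against the smaller CUTLL1 shRenilla column and shJMJD3 against the larger, as the authors paired them; the comparisons of shJMJD3 with shUTX and of the lines used the larger. Within a line, log2 ratios used TMM factors and a prior count of 2, and a gene was apart at 1.5-fold with at least 50 counts in either column; levels are CPM of the column total. Intervals are exact (Clopper-Pearson) at 95%. Named were the 10 members, the targets, the listed genes apart the same way in both lines or among the 3 largest in a direction within a line, and the 3 genes most like each of the 2 members with the largest mean absolute ratio to shRenilla. The members and lists were chosen with earlier results of these data known. Alternatives were the scaling, the filter, the prior count, the fold, the control column, the tool and leaving out each hairpin from the comparison of lines. Some listed genes are counted with their lists but not reported here. The wider lists and the sign counts were set against the other control columns after the data were seen.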

Additional observations from a re-analysis of the deposited data

Results flagged for a closer look

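The shJMJD3 ratio of BBC3 to shRenilla had opposite signs in the lines. It was 0.30 on the log2 scale in CUTLL1 and -2.63 in CEM, each with a counting interval clear of 0, a difference of 2.93. The difference was not tested, since each line has 1 column per hairpin, and against the smaller control column the CUTLL1 ratio was -0.13. BNIP3 had opposite signs for shJMJD3 against shUTX, at -0.72 in CUTLL1 and 4.14 in CEM, a difference of -4.86, which was not tested either. Within the CUTLL1 control BNIP3 was at 58.5 CPM in the smaller column and 4.62 CPM in the remainder.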

How the results depend on the processing

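No paired analysis was possible because the deposited columns carry no replicate number. The number of members 1.5-fold apart depended on the control column in CUTLL1. For shJMJD3 against shRenilla it was 0 with the larger column, 1 with the smaller and 3 with the remainder. For shUTX against shRenilla it was 0 with the smaller, 2 with the larger and 3 with the remainder. The number of all genes apart moved too. With shJMJD3, 3585 of 18581 genes were higher and 879 lower than in the smaller column. Against the remainder these were 3164 and 3950 of 18553. With shUTX, 2004 of 19583 genes were higher and 3141 lower than in the larger column. Against the remainder these were 3658 and 4545 of 17985. By column totals the number of members was 3 in place of 1 for shJMJD3 against shUTX in CUTLL1. It was 5 in place of 2 for shJMJD3 against shRenilla in CEM, where it was 1 at 2-fold. Across lines edgeR called 0 genes for each pair of hairpins, while DESeq2 called 110 for shJMJD3 against shRenilla, 2 for shUTX against shRenilla and 287 for shJMJD3 against shUTX. For that last pair edgeR called 6 by column totals and 55 with no filter. Between CUTLL1 and CEM, leaving out a hairpin gave 2 to 5 members called, against 5, and 1732 to 10304 genes, against 8835. The cause was not tested. No value called as reported for a member changed direction under the alternatives run. Within a line, however, the control column was varied only for the CUTLL1 ratios to shRenilla, where no member was called as reported. BAK1 with shJMJD3 in CUTLL1 was not apart from the larger control column (0.36). It was higher than the smaller (2.37) and lower than the remainder (-0.91). In the wider lists, YWHAZ with shJMJD3 in CUTLL1 was called higher than the larger control column (0.67). Against the remainder YWHAZ was at -0.53, which is the other direction but within 1.5-fold.

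Scaling to column totals moved the median log2 ratio of all genes by -0.15 for shJMJD3 against shRenilla and -0.19 for shJMJD3 against shUTX in CUTLL1, and by -0.31 and -0.24 in CEM. Genes apart were then 1200 higher and 2331 lower for shJMJD3 against shRenilla in CUTLL1 (1707 and 1430 by TMM), and 2360 and 6210 in CEM (3803 and 4068 by TMM). For shJMJD3 against shUTX they were 2805 and 3892 in CUTLL1 (3156 and 1869 by TMM), and 2470 and 5410 in CEM (3606 and 3786 by TMM). Depth limits BBC3 most, with 41 counts in its lowest column.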
